A study of Mus musculus with 6 samples.

Results

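Glycolysis converts glucose to pyruvate in the cytosol, and pyruvate is then either reduced to lactate and exported or carried into mitochondria. There the pyruvate dehydrogenase complex converts it to acetyl coenzyme A. Kinases that phosphorylate and switch off that complex, and phosphatases that reverse the mark, set how much pyruvate takes the mitochondrial route. Cells of the osteoblast lineage are known for drawing much of their energy from glucose and for releasing lactate even when oxygen is present. The 35 genes described here cover these steps, from glucose uptake (Slc2a1, Slc2a3) to the kinases (Pdk1 to Pdk4). They were taken from the expression table by gene symbol, and all 35 were among the 23622 genes in it. Each passed the filter on low values (a mean of at least 0.5 FPKM, the read count of a gene scaled to its length and to the size of the library), as did 13326 genes in all.

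RNA was sequenced from bone progenitors grown from the bone marrow of C57BL/6 mice aged 2 weeks, untreated and cultured to generation 3. Ift140 encodes a subunit of the intraflagellar transport A complex, which moves proteins in primary cilia. The control group held 3 wild-type libraries (control 2, 3 and 4), and the cKO group held 3 Ift140-/- libraries (cKO 2, 3 and 4). The sources used here do not give the promoter or Cre line behind the deletion, nor the mice and litters behind each culture. P-values therefore measure the spread between these 6 libraries.

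Ift140 was at 3.11, 2.75 and 3.05 FPKM in the controls and at 1.72, 1.74 and 1.90 FPKM in the cKO libraries, and it fell by 0.51 on the log2(FPKM + 1) scale (SE 0.07, limma adjusted p = 0.0138). Limma fits every gene at once and shares the estimate of replicate spread among genes, and an adjusted p under 0.05 over all tested genes counts as a call. Its cKO mean was 39.8% below that of the controls, on 224 to 406 reads per cKO library. The exons removed are not named in the labels, and a gene-level value counts transcripts with and without them alike. The adjusted p was 0.0721 without control 4 and 0.0599 without cKO 3. Xist was at 0.0443 to 0.119 FPKM in the controls and at 36.6 to 40.3 FPKM in the cKO libraries, while the Y-linked Ddx3y was at 13.8 to 16.7 FPKM and at 0 to 0.0107 FPKM. By these genes the controls read as male and the cKO cultures as female, and genotype and sex cannot be told apart in any comparison here. Recovered reads per library ranged from 16465496 to 28904986. Stromal and osteoblast markers summed to 4306 to 4727 FPKM in the controls and to 3435 to 4844 FPKM in the cKO libraries. They moved both ways: of 12, Twist1 and Bglap rose and Prrx1 fell, where 7.61% of all tested genes were called. Macrophage markers were also abundant, at 2147 to 2692 FPKM and at 2594 to 3554 FPKM, with 0 of 10 called by limma or voom and 1 at an unadjusted p under 0.05. No erythroid marker passed the filter. Control 3 stood apart from the other controls on the second principal component (-20.4 against 15.4 and 11.4), and for the genes it moves most the value without it is given.

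Of the 35 genes, 2 fell in the cKO libraries and none rose, and both belong to the pyruvate dehydrogenase step. Pdk4, a kinase that inactivates pyruvate dehydrogenase, was 35.7% lower in the cKO libraries. Pdhb, which encodes the beta subunit of the pyruvate dehydrogenase E1 enzyme, was 14.9% lower. At a limma adjusted p under 0.05, 0 genes were called higher and 2 were called lower (5.71% of the 35), against 5.04% of all tested genes called higher, 2.57% called lower and 7.61% in either direction, a background near which the share of the set lies. Some other fits also called genes of other steps, namely Pgk1 after quantile normalization, Hk2 without control 3, and Pgk1, Slc16a1 and Hk2 with library weights. Voom on the recovered reads also gave 0 and 2. Over all tested genes the limma calls were 672 higher and 342 lower, and 609 and 560 after quantile normalization. The voom calls over all tested genes were 953 higher and 540 lower. The unadjusted limma p was under 0.05 for 3 genes with higher values in the cKO libraries and for 9 with lower values, where the shares of all tested genes were 16.0% and 12.8%.

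The control and cKO libraries did not overlap for 14 of the 35 genes (40.0%), close to the 35.7% of all tested genes. Of these, 11 were lower in every cKO library (31.4%, against 17.8% of all tested genes) and 3 were higher (8.57%, against 17.9%). The 11 were Pfkp, Pfkfb4, Pgk1, Pgam1, Ldha, Pdha1, Pdhb, Dlat, Pdk3, Pdk4 and Slc16a1, and the 3 were Eno3, Pdk2 and Pdp1. The exact permutation p of each of these 14 genes was 0.1, the smallest that 3 libraries against 3 allow. The median log2 fold change over the 35 genes was -0.04, beside -0.0011 over all tested genes, with values from -0.60 to 0.25. Their summed FPKM was 2180, 1930 and 2041 in the controls and 1853, 2009 and 2088 in the cKO libraries, which overlap.

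**Figure D1:**
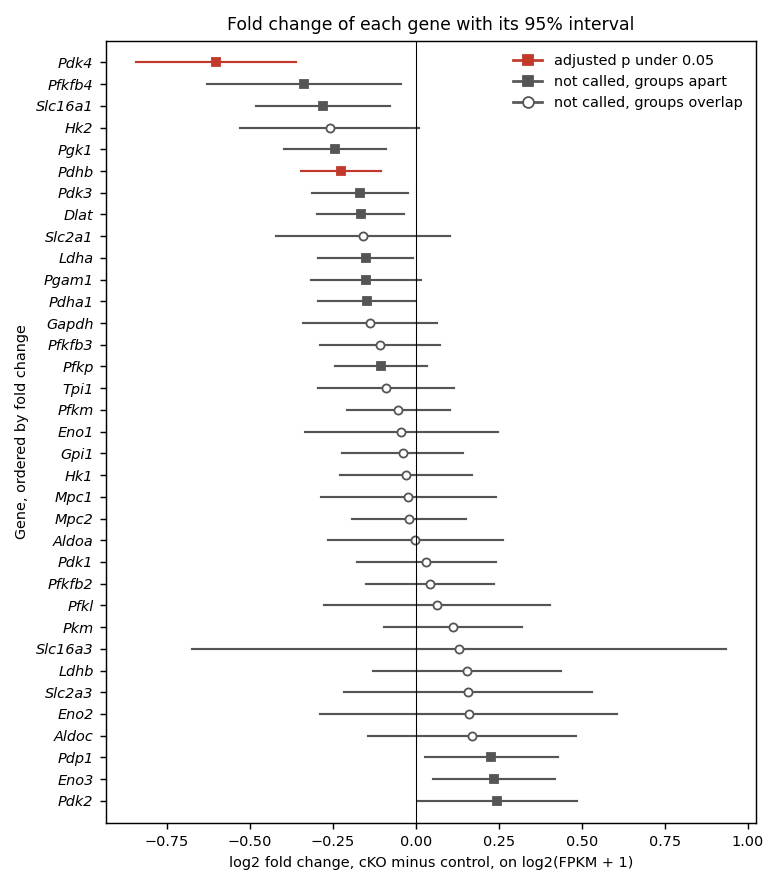
Log2 fold change (cKO minus control, on log2(FPKM + 1)) of each of the 35 genes as a point with its 95% interval from limma, ordered from lowest to highest. Red squares mark the 2 genes with an adjusted p under 0.05, filled grey squares the other genes whose groups did not overlap, and open circles the genes whose groups overlapped. Pdk4 lies at -0.60 and Pdk2 at 0.25.

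The stretches of 250 bases before the transcription start are printed for the 2 genes that fell and for the 2 others with the smallest unadjusted p, Pgk1 and Slc16a1, because these 4 carried the lowest p-values of the set. The sequences come from RefSeq (GRCm38.p6), read 5′ to 3′ on the gene's own strand. Capitals mark ACGTG and CCAAT, each on either strand (CACGT and ATTGG on the reverse strand). ACGTG is a form of the core of the hypoxia response element that hypoxia-inducible factors bind. The other form of that core, GCGTG, was neither counted over genes nor marked. CCAAT is the box bound by nuclear factor Y. The windows are chr6:5496279-5496528 (minus strand) for Pdk4, chr14:8172993-8173242 (minus strand) for Pdhb, chrX:106186850-106187099 (plus strand) for Pgk1 and chr3:104638414-104638663 (plus strand) for Slc16a1.
Pdk4: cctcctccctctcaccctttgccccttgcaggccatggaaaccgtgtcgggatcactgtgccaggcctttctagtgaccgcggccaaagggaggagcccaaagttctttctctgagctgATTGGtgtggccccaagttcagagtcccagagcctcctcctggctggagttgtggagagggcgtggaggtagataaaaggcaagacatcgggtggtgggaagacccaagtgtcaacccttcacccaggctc
Pdhb: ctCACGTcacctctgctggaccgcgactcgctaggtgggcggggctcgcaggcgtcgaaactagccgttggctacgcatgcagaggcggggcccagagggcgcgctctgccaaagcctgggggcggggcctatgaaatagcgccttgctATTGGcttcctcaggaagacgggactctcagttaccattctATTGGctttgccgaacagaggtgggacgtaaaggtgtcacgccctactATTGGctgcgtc
Pgk1: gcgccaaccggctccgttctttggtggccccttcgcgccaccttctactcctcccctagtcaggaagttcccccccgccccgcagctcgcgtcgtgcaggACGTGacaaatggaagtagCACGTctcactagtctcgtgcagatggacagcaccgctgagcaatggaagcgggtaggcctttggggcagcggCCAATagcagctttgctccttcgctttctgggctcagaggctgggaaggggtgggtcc
Slc16a1: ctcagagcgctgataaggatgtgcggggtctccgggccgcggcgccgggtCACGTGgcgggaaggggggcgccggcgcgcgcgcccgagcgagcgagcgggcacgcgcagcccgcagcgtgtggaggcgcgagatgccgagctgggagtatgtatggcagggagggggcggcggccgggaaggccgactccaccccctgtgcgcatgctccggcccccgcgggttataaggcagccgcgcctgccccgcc
The Pdk4 window held 1 CCAAT box, on the reverse strand, and no ACGTG. Its unmarked letters do include GCGTG, as do those of the Slc16a1 window. The Pdhb window includes it on the reverse strand (as CACGC), and the Pgk1 window on neither strand. The Pdhb window held 3 CCAAT boxes, all on the reverse strand, and 1 ACGTG. In the Pgk1 window ACGTG stood once on each strand, beside 1 CCAAT box. The Slc16a1 window held CACGTG, which contains ACGTG on both strands and is also the E-box read by MYC-type factors. Of the 35 genes, 33 had a RefSeq window, and 15 of these (45.5%) held ACGTG, against 18.5% of 27025 genes with a window. Counted by window, the shares were 38.0% of 50 and 16.6% of 32851 for ACGTG, 12.0% and 6.02% for CACGTG, and 36.0% and 33.8% for CCAAT. The windows were not matched on base composition. The median log2 fold change was -0.15 over the 15 genes with ACGTG and -0.04 over the 18 without it. Without overlap between the groups, 6 of the 15 were lower and 1 higher, and 5 of the 18 were lower and 1 higher. Whether the 2 sets differ was not tested. A match of letters is a description and not a binding site.

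The 4 Pdk genes encode the pyruvate dehydrogenase kinases, and their control means ran from 27.0 FPKM for Pdk4 through 8.80 for Pdk3 and 5.97 for Pdk2 to 2.57 for Pdk1. FPKM is scaled to 1 length per gene, which need not be that of the transcripts present. Ranks and shares between genes, here and for the other isozymes below, depend on that length. In control 2, Pdk1 had 460 recovered reads, Pdk3 465 and Pdk2 429. Pdk4, the kinase gene that fasting and fatty acids are known to induce in many tissues (chromosome 6, 5483351 to 5496309, minus strand, GRCm38), was at 24.0, 30.8 and 26.4 FPKM in the controls and at 16.0, 17.8 and 18.4 FPKM in the cKO libraries. Every control library lay above every cKO library, on 964 to 2331 recovered reads per library. Its mean went from 27.0 ± 3.44 FPKM to 17.4 ± 1.26 FPKM (SD, n = 3 each), and it fell by 0.60 on the log2 scale (SE 0.10, 95% interval -0.84 to -0.36, limma adjusted p = 0.0222). Control 3 had the highest Pdk4, and without it the log2 fold change was -0.51 (limma adjusted p = 0.0242). Without control 2 the limma adjusted p was 0.0254, while it was 0.0894 without control 4, 0.0675 without cKO 2, 0.0765 without cKO 3 and 0.0518 without cKO 4. Adipocyte markers summed to 96.2 to 123 FPKM in the controls and to 234 to 254 FPKM in the cKO libraries, where Cebpa and Adipoq rose, Pparg and Fabp4 overlapped between the groups, and Plin1, Cidec and Lep were near 0 in both. Endothelial markers summed to 22.1 to 28.7 FPKM and to 16.7 to 19.8 FPKM. Of the 7 markers, 4 were lower without overlap (57.1%, against 17.8% of all tested genes). Limma called 1 of the 7 lower (Emcn, 14.3% of the list, against 2.57% of all tested genes). Voom called 4 lower, against 540 of the 13326 tested genes. Osteoclast markers summed to 74.7 to 123 FPKM and to 83.6 to 101 FPKM. Of the 4 above the filter, Atp6v0d2 and Mmp9 rose, 3 were higher without overlap and voom called 3 higher, while Calcr was near 0. The part of these cell types in the Pdk4 result was not tested. In RNA from whole cultures, fewer cells that express a gene and less of its RNA per cell cannot be told apart.

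Pdk2, a kinase gene expressed in most tissues, was at 6.73, 5.29 and 5.91 FPKM in the controls and at 6.74, 6.92 and 8.13 FPKM in the cKO libraries. The highest control and the lowest cKO library were nearly equal. Its log2 fold change was 0.25 (SE 0.10, 95% interval 0.01 to 0.48, limma adjusted p = 0.165). Pdk3, an X-linked kinase gene that hypoxia is known to induce, was at 9.01, 8.88 and 8.52 FPKM in the controls and at 8.11, 7.25 and 7.83 FPKM in the cKO libraries, with a log2 fold change of -0.17 (SE 0.06, limma adjusted p = 0.132). Pdk1, the other kinase gene known as a hypoxia target, was at 2.31 to 2.93 FPKM in the controls and at 2.43 to 2.81 FPKM in the cKO libraries, and its groups overlapped. Pdp1 encodes the catalytic subunit of a phosphatase that removes the kinases' mark, and it was at 4.47, 3.74 and 4.74 FPKM in the controls and at 4.99, 5.26 and 5.37 FPKM in the cKO libraries. All 3 cKO libraries were above the controls, at a log2 fold change of 0.23 (SE 0.08) and a limma adjusted p of 0.139. Without control 3 the log2 fold change of Pdp1 was 0.15.

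Among the kinase transcripts the share of Pdk4 was lower and those of Pdk2 and Pdk1 were higher in every cKO library. Pdk4 made up 56.2%, 65.1% and 61.0% of the summed FPKM of the 4 kinase genes in the controls and 48.0%, 51.2% and 49.7% in the cKO libraries. Pdk2 made up 15.8%, 11.2% and 13.6% of it in the controls and 20.2%, 19.9% and 21.9% in the cKO libraries. Neither share overlapped between the groups. The share of Pdk1 was 5.82% ± 1.01 and 7.54% ± 0.466 (SD, n = 3 each), also without overlap, while that of Pdk3 was 18.8% to 21.1% and 20.9% to 24.4%, which overlap. The shares add up to the whole, so a lower share of Pdk4 by itself raises the others. The ratio of Pdk4 to Pdk2 was 4.62 ± 1.13 in the controls and 2.40 ± 0.155 in the cKO libraries (SD, n = 3 each), with library values of 3.56, 5.82 and 4.47 against 2.37, 2.57 and 2.27. The summed kinase level was 42.6, 47.2 and 43.3 FPKM in the controls and 33.3, 34.8 and 37.0 FPKM in the cKO libraries. Relative to Pdha1, the gene of the subunit the kinases phosphorylate, Pdk4 was at 0.769 ± 0.0617 in the controls and at 0.551 ± 0.0406 in the cKO libraries, again without overlap. These shares and ratios were given no test of their own.

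**Figure D2:**
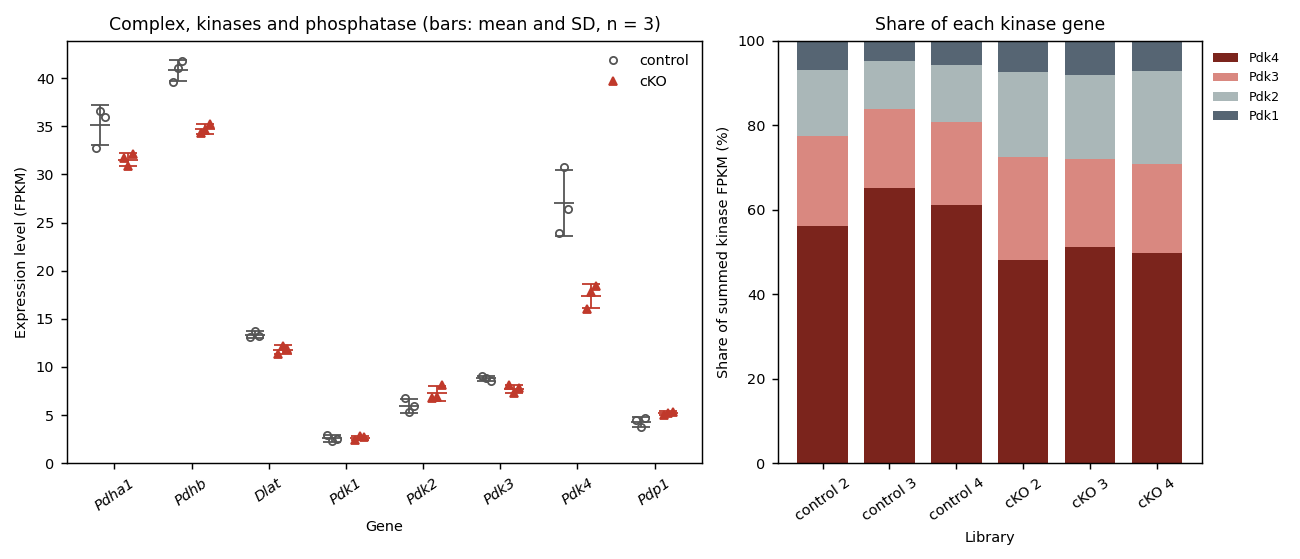
Left, expression level (FPKM) of the subunit genes Pdha1, Pdhb and Dlat, the 4 kinases and the phosphatase Pdp1, with 1 point per library. Bars give the mean and SD (n = 3). Pdk4 lay at 24.0 to 30.8 FPKM in the controls and at 16.0 to 18.4 FPKM in the cKO libraries. Right, share of each kinase gene in the summed kinase FPKM of each library (percent), where Pdk4 made up 56.2% to 65.1% in the control libraries and 48.0% to 51.2% in the cKO libraries.

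The 3 subunit genes of the complex among the 35 genes were each lower in all cKO libraries, and Pdhb was called. Dld and Pdhx, which encode its other subunits, were read with the further mitochondrial entry genes below, where limma called none. Pdhb (chromosome 14, 8165996 to 8173025, minus strand, GRCm38) was at 39.7, 41.1 and 41.8 FPKM in the controls and at 34.3, 34.6 and 35.3 FPKM in the cKO libraries. The gap between the groups was wider than the range within either of them. Pdhb fell by 0.23 on the log2 scale (SE 0.05, 95% interval -0.35 to -0.11, limma adjusted p = 0.0458). That call was lost without any single library: the limma adjusted p was 0.0593, 0.0694 and 0.166 without control 2, 3 and 4, and 0.133, 0.139 and 0.0896 without cKO 2, 3 and 4. After a correction for the GC content of genes, the log2 fold change of Pdhb was -0.15 (limma adjusted p = 0.115).

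Pdha1, the X-linked gene of the E1 alpha subunit, was at 32.7, 36.6 and 36.0 FPKM in the controls and at 31.7, 30.8 and 32.1 FPKM in the cKO libraries. Its groups did not overlap, and its log2 fold change was -0.15 (SE 0.06, limma adjusted p = 0.170). Dlat, which encodes the E2 acetyltransferase core of the complex, was at 13.1, 13.8 and 13.2 FPKM in the controls and at 11.3, 12.2 and 11.9 FPKM in the cKO libraries, with a log2 fold change of -0.17 (SE 0.05, limma adjusted p = 0.109). The GC-corrected log2 fold changes were -0.07 for Pdha1 and -0.10 for Dlat. Mpc1 and Mpc2 encode the 2 subunits of the carrier that brings pyruvate across the inner mitochondrial membrane. Both overlapped between the groups, at 1.001 to 1.18 FPKM against 0.849 to 1.37 FPKM for Mpc1, and at means of 4.43 and 4.34 FPKM for Mpc2. Their log2 fold changes were -0.02 each, with 95% intervals of -0.29 to 0.24 for Mpc1, which rested on 38 to 51 reads per library, and -0.19 to 0.15 for Mpc2.

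Glucose uptake and its first phosphorylation showed no call. Slc2a1, the gene of the ubiquitous glucose transporter GLUT1, was at 17.1, 12.8 and 15.6 FPKM in the controls and at 12.3, 13.9 and 14.0 FPKM in the cKO libraries, which overlap (log2 fold change -0.16, limma adjusted p = 0.385; -0.27 without control 3 and -0.07 without control 2). Slc2a3, the gene of the high-affinity transporter GLUT3, was far lower in level, at 0.524 to 1.16 FPKM in the controls and at 0.964 to 1.38 FPKM in the cKO libraries. Hk1, the housekeeping hexokinase, had means of 16.0 and 15.7 FPKM and a log2 fold change of -0.03 (limma adjusted p = 0.842). Hk2, the inducible hexokinase, was at 7.55, 5.43 and 7.33 FPKM in the controls and at 5.30, 5.57 and 5.44 FPKM in the cKO libraries. Control 3 lay within the cKO range and the other controls lay above it. The log2 fold change of Hk2 was -0.26 (SE 0.11, 95% interval -0.53 to 0.01, limma adjusted p = 0.188) with all libraries and -0.39 (limma adjusted p = 0.0207) without control 3. Gpi1, which isomerises glucose phosphate to fructose phosphate, had means of 46.1 ± 4.01 and 44.8 ± 1.83 FPKM (SD, n = 3 each) and overlapping groups.

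Phosphofructokinase catalyses the committed step of glycolysis. Its liver-type gene Pfkl led the 3 isozymes with 63.2% of their summed FPKM in the controls, followed by the muscle type Pfkm with 22.9% and the platelet type Pfkp with 13.9%. Pfkl was at 33.4, 23.1 and 32.3 FPKM in the controls and at 27.9, 32.2 and 31.9 FPKM in the cKO libraries, and Pfkm at 9.93 to 11.1 FPKM and at 9.69 to 10.7 FPKM. Both overlapped. Pfkp was lower in each cKO library (6.12 to 6.58 FPKM against 5.66 to 6.12 FPKM) by a margin smaller than its spread, with a log2 fold change of -0.11 (limma adjusted p = 0.279). Its annotated exons share 748 bases with Pitrm1 on the other strand, which was at a mean of 20.9 FPKM, and whether the counting used strand is not given in the sources used here.

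The bifunctional Pfkfb enzymes make and break the sugar bisphosphate that activates phosphofructokinase. Pfkfb4 was at 6.03, 8.44 and 6.25 FPKM in the controls and at 4.75, 5.48 and 5.40 FPKM in the cKO libraries. Every control library was above every cKO library, and control 3 stood above the other controls. Its log2 fold change of -0.34 (SE 0.12, 95% interval -0.63 to -0.05) was the second lowest of the 35 genes but did not pass the test (limma adjusted p = 0.133), and it was -0.20 without control 3. Pfkfb3, the most kinase-active of the family, had means of 6.52 and 5.98 FPKM with overlapping groups, and so did Pfkfb2, the heart type, with means of 1.28 and 1.35 FPKM. The share of Pfkfb2 in the summed FPKM of the 3 genes was 8.72% ± 0.455 in the controls and 10.8% ± 1.14 in the cKO libraries (SD, n = 3 each), without overlap.

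The lower steps of glycolysis held the most abundant transcripts of the set. Pkm, the pyruvate kinase that forms pyruvate, was at 632, 551 and 596 FPKM in the controls and at 590, 656 and 678 FPKM in the cKO libraries, and its splice forms cannot be separated in gene-level values. Its groups overlapped, with a log2 fold change of 0.11 (limma adjusted p = 0.439), which was 0.06 without control 3. Gapdh, which oxidises glyceraldehyde phosphate, had means of 364 ± 22.7 and 330.5 ± 27.0 FPKM (SD, n = 3 each) with overlapping groups. Aldoa, the main aldolase, was at means of 145 and 144 FPKM with a log2 fold change of -0.0016 and a 95% interval from -0.27 to 0.26. Tpi1, triose phosphate isomerase, was at means of 105 and 98.7 FPKM, and Eno1, the main enolase, at 144 and 138 FPKM. Both overlapped between the groups.

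Pgk1, the X-linked phosphoglycerate kinase that makes the first ATP of the pathway, came nearest to the threshold among the genes not called. It was at 122, 111 and 118 FPKM in the controls and at 94.2, 102 and 99.5 FPKM in the cKO libraries. All control libraries exceeded all cKO libraries, at a log2 fold change of -0.24 (SE 0.06, 95% interval -0.40 to -0.09) and a limma adjusted p of 0.0680, which ranged from 0.0179 to 0.216 over 20 alternative fits. Pgam1, the phosphoglycerate mutase of the next step, was at 80.5, 71.1 and 74.1 FPKM in the controls and at 64.0, 69.9 and 69.0 FPKM in the cKO libraries (log2 fold change -0.15, limma adjusted p = 0.209). Eno3, the muscle-type enolase, went the other way, at 4.11, 4.29 and 4.32 FPKM in the controls and at 4.65, 5.16 and 5.73 FPKM in the cKO libraries (log2 fold change 0.24, SE 0.08, limma adjusted p = 0.108). Its groups did not overlap, but it supplied only 2.89% of enolase FPKM in the controls and 3.56% in the cKO libraries, next to 96.1% and 95.2% for Eno1. Skeletal muscle markers summed to 3.87 to 6.31 FPKM in the controls and to 3.89 to 4.27 FPKM in the cKO libraries. The minor brain-type isozymes Aldoc and Eno2 had control means of 1.59 and 1.55 FPKM and overlapping groups.

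Ldha, the lactate dehydrogenase subunit that favours lactate formation, was at 185, 197 and 187 FPKM in the controls and at 164, 171 and 176 FPKM in the cKO libraries. The groups did not overlap, at a log2 fold change of -0.15 (SE 0.06, limma adjusted p = 0.156). Ldhb, the heart-type subunit, was at 8.44 to 11.8 FPKM in the controls and at 10.8 to 12.4 FPKM in the cKO libraries, which overlap, and Ldha made up 94.9% of the summed FPKM of both genes in the controls and 93.7% in the cKO libraries. Slc16a1, the gene of the monocarboxylate transporter MCT1, was at 3.81, 4.63 and 4.35 FPKM in the controls and at 3.42, 3.02 and 3.55 FPKM in the cKO libraries. Its log2 fold change was -0.28 (SE 0.08, 95% interval -0.48 to -0.08, limma adjusted p = 0.0907) without overlap between the groups. Slc16a3, the gene of the lactate exporter MCT4, was at 9.55, 3.21 and 8.63 FPKM in the controls and at 6.21, 7.48 and 8.17 FPKM in the cKO libraries. Control 3 alone was below the cKO range, and the log2 fold change was 0.13 (95% interval -0.67 to 0.93) with it and -0.29 (limma adjusted p = 0.170) without it.

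**Figure D3:**
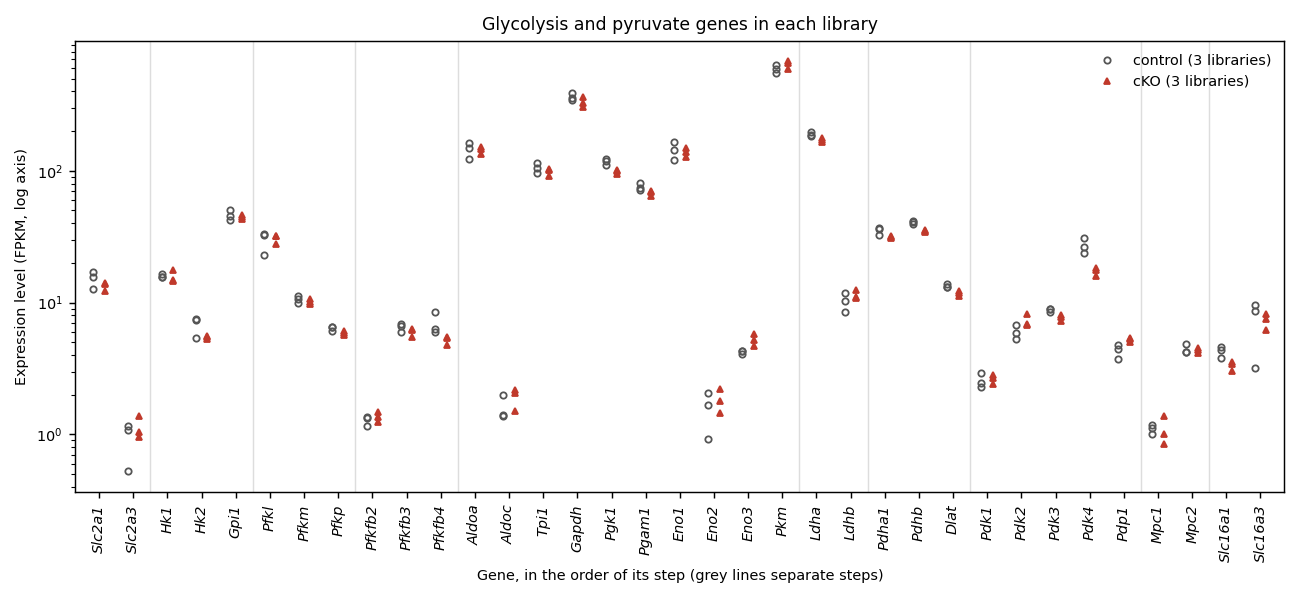
Expression level (FPKM, log axis) of each of the 35 genes, in the order of the pathway, with 1 point per library; open circles are the 3 control and triangles the 3 cKO libraries. The lowest control mean is that of Slc2a3 (0.925 FPKM), Pkm lies at 551 to 678 FPKM, and the spread between genes is far wider than that between groups.

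Control 3 differed from the other control libraries across the set. It was the lowest of the 3 controls for 20 of the 35 genes (57.1%, against 38.7% of all tested genes) and the highest for 10 (28.6%, against 38.6%). The largest distances below the mean of the other controls, on the log2(FPKM + 1) scale, were -1.26 for Slc16a3, -0.58 for Eno2, -0.49 for Pfkl, -0.48 for Slc2a3 and -0.39 for Hk2. Pfkfb4 and Pdk4 lay above it by 0.40 and 0.28. In the same library, 9 of 10 macrophage markers, 5 of 7 endothelial markers and 7 of 8 proliferation markers were the lowest of the controls, and granulocyte markers summed to 5.71 FPKM, against 42.6 and 34.9 FPKM in controls 2 and 4. Of 12 stromal and osteoblast markers, 5 were highest there (Col1a2, Sp7, Alpl, Twist1 and Ibsp), 3 were lowest (Pdgfrb, Thy1 and Prrx1) and 4 were between the other controls. The part of cell makeup in the levels of these genes was not tested. Without control 3 the median log2 fold change of the 35 genes was -0.11. Leaving it out took the log2 fold change of Eno2 from 0.16 to -0.035, that of Pfkl from 0.06 to -0.099 and that of Slc2a3 from 0.16 to -0.0043. The log2 fold change turned sign in 6 genes, grew by over 1.5 times in 8 and shrank by over 1.5 times in 5, none of them called with all libraries, and Ldhb went from 0.15 to 0.04, Eno1 from -0.04 to -0.16 and Pdk2 from 0.25 to 0.17. Control 2 was the highest of all 6 libraries for 13 of the 35 genes (37.1%, against 12.9% of all tested genes), and cKO 2 the lowest for 12 (34.3%, against 14.7%).

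**Figure D4:**
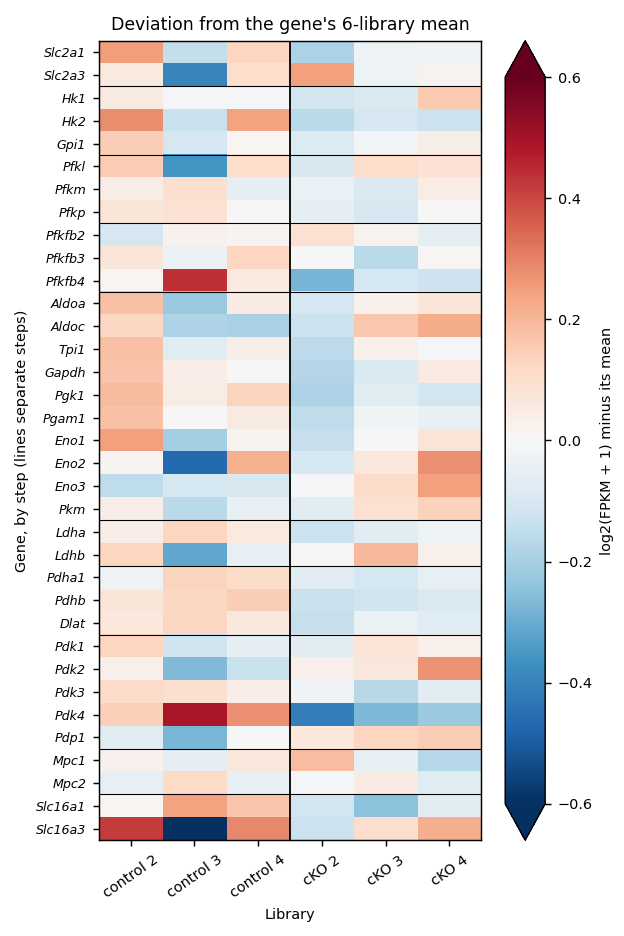
Deviation of each gene from its mean over the 6 libraries, in log2(FPKM + 1) units, with genes grouped by step and 1 column per library (colours saturate at 0.6 in either direction). Control 3 shows low Slc16a3, Eno2, Pfkl and Slc2a3 and high Pdk4 and Pfkfb4, and the 3 cKO libraries are all low in Pdk4.

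Other genes that feed, branch from or regulate the route were read from 8 lists. These lists were chosen with earlier results of these data known, so their shares are descriptions and not tests. Of all tested genes, 5.04% were called higher and 2.57% lower by limma, and 28.8% had an unadjusted limma p under 0.05. Voom called 953 of the 13326 higher and 540 lower. Of 9 tested genes among further glycolytic isozymes, 1 rose and 1 fell, which is 22.2% against 7.61% of all tested genes. Hk3, a hexokinase of blood-forming cells, went from 15.3 ± 3.47 to 26.6 ± 3.61 FPKM (SD, n = 3 each; log2 fold change 0.78, limma adjusted p = 0.0425). Granulocyte markers summed to 5.71 to 42.6 FPKM in the controls and to 85.7 to 263 FPKM in the cKO libraries, and Ly6g, Mpo and Elane were at or near 0. The 5 of these 8 markers above the filter were all higher without overlap, where 17.9% of all tested genes were. The unadjusted limma p was under 0.05 for 5, against 16.0% of all tested genes, with 0 called by limma and 2 by voom. The filter used the mean of all 6 libraries, so high cKO values alone could carry a marker past it. Their part in the Hk3 result was not tested. Adpgk, a glucose kinase that uses ADP, fell from 22.3 ± 1.69 to 16.9 ± 1.07 FPKM (limma adjusted p = 0.0359). Among 12 further carriers 2 rose (16.7%, against 5.04% of all tested genes called higher), and voom called 1. Slc2a8, the gene of the intracellular transporter GLUT8, rose from 6.24 ± 0.739 to 9.65 ± 1.08 FPKM (limma adjusted p = 0.0300). Slc16a7, the gene of the pyruvate and lactate transporter MCT2, rose from 2.73 ± 0.0411 to 3.43 ± 0.0972 FPKM (limma adjusted p = 0.0498).

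At the mitochondrial entry, 0 of 12 further genes were called by limma, against 7.61% of all tested genes. Of the 12, 4 had an unadjusted p under 0.05, near the 28.8% of all tested genes, and voom called 1. Me1, the cytosolic malic enzyme, came nearest, at 20.2 ± 2.94 and 15.2 ± 0.840 FPKM (limma adjusted p = 0.0724). Glycogen and gluconeogenesis genes also gave 0 calls of 18 by limma and 0 by voom, with 5 at an unadjusted p under 0.05. Pygl, the liver-type glycogen phosphorylase, had the smallest p of that list, at 5.34 ± 2.14 and 9.24 ± 0.581 FPKM (limma adjusted p = 0.101). Of 13 genes of the pentose phosphate and hexosamine branches, Gfpt1, the rate-limiting enzyme of hexosamine synthesis, fell from 12.2 ± 0.619 to 9.65 ± 0.330 FPKM (limma adjusted p = 0.0301), and no other gene of that list was called (7.69%, against 7.61% of all tested genes).

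The branch that makes serine from phosphoglycerate had all 3 of its enzyme genes called lower with all libraries. Phgdh, its first enzyme, was at 57.6, 63.4 and 52.7 FPKM in the controls and at 37.7, 38.8 and 45.0 FPKM in the cKO libraries (log2 fold change -0.51, limma adjusted p = 0.0299). Psat1, the aminotransferase, went from 20.6 ± 3.12 to 13.1 ± 1.45 FPKM (limma adjusted p = 0.0321). Psph, the phosphatase that releases serine, went from 5.11 ± 0.785 to 3.23 ± 0.242 FPKM (limma adjusted p = 0.0317). They were the 3 called genes among the 13 tested in the list of glycerol phosphate and serine branches, whose median log2 fold change was -0.15. That is 23.1% of the list, against 2.57% of all tested genes called lower. The list was chosen with earlier results known, so this share tests nothing. Voom called 3 of the 13 lower and 1 higher, against 540 and 953 of the 13326 tested genes. In all 3 genes the control and cKO libraries did not overlap. None of the 3 was called without control 4, without cKO 2 or without cKO 3.

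Among 22 tested regulators of glycolytic genes, 3 rose and 1 fell (18.2%, against 7.61% of all tested genes). Egln1 and Egln2 encode prolyl hydroxylases that mark hypoxia-inducible factors for destruction. Egln1 rose from 18.1 ± 0.970 to 29.0 ± 3.25 FPKM (log2 fold change 0.65, limma adjusted p = 0.0148) and Egln2 from 31.5 ± 1.68 to 43.9 ± 3.18 FPKM (limma adjusted p = 0.0190). Epas1, the gene of the factor HIF-2 alpha, rose from 25.7 ± 3.71 to 37.9 ± 2.46 FPKM (limma adjusted p = 0.0308). Hif1a, the gene of the factor HIF-1 alpha, was at 28.7, 25.7 and 28.4 FPKM in the controls and at 20.0, 22.8 and 20.2 FPKM in the cKO libraries, and it fell by 0.38 on the log2 scale (limma adjusted p = 0.0329). Hif1a lies outside the rule for naming genes and was chosen after its values were seen. Of 16 tested targets of these factors outside glycolysis, Ddit4, the gene of an inhibitor of mTOR complex 1 signalling, fell from 29.7 ± 5.05 to 14.8 ± 1.33 FPKM (log2 fold change -0.95, limma adjusted p = 0.0125). This was the 1 call of that list (6.25%, against 7.61% of all tested genes). Voom called 3 lower, against 540 of the 13326 tested genes. Of the 16, 5 were lower and 2 higher without overlap, where 17.8% and 17.9% of all tested genes were. The summed level of that list was 324 to 349 FPKM in the controls and 266 to 290 FPKM in the cKO libraries, without overlap.

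Each of the 13 called genes of these lists lost its call on leaving out at least 1 library. Over all fits without 1 library, also those that kept a call, their limma adjusted p-values ranged from 0.00953 to 0.153. In the 6 fits that each left out 1 library, Slc16a7 was called 0 times, and Adpgk, Epas1 and Hif1a 1 time each. Hk3, Gfpt1, Phgdh and Psph were called in 2 of these fits, and Psat1 and Slc2a8 in 3. Egln1 and Egln2 were called in 4 and Ddit4 in 5. None of the 13 was called without control 4. After GC correction 6 of them were called, and Hk3, Adpgk, Slc2a8, Gfpt1, Psat1, Egln2 and Hif1a were not, with the log2 fold change of Egln2 at 0.19 instead of 0.47 and that of Slc2a8 at 0.32 instead of 0.56. The slope of expression on GC content differed between the groups, from -0.107 to -0.0262 log2 units per 10% GC in the controls and from 0.0292 to 0.134 in the cKO libraries. Its part in the results was not tested beyond that correction.

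Several of the 35 genes have near-identical copies elsewhere in the genome, among which the authors' counting could have split reads, so their levels are uncertain. At 90% identity over at least 300 bases, 168 pseudogene copies were found for Gapdh, 13 for Ldha, 8 for Pkm, 5 each for Aldoa and Eno1, 4 for Pgk1, 3 for Pgam1 and 2 for Tpi1. Gpi1, Ldhb, Pdha1 and Pdhb had 1 each. The copy Pgam1-ps2 was at a mean of 7.62 FPKM and that of Pdhb, Gm6123, at 0.143 FPKM. No such copy was found for Pdk1, Pdk2, Pdk3 or Pdk4.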

How the data were processed

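Per the labels' protocols, 3 µg of total RNA from each of 6 cultures went through poly-T selection and a NEBNext Ultra library kit. The authors deposited FPKM, a read count scaled to gene length and library size, in a table with 1 column per library. HTSeq 0.6.0 and DESeq2 1.10.1 are known from the submitters' processing notes, as names without a role. Which aligner, build, gene models and strand setting were used is not given in the sources used here.

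Gene symbols and coordinates were looked up in GENCODE vM21 (GRCm38), which holds 99.5% of the table's identifiers. Reads were recovered from the steps between low FPKM values, and all 23427 genes above 0 in some library came out whole (tolerance 1e-06). The library totals behind the FPKM were 17180101 to 28283414, and they followed median-of-ratios factors of the recovered reads within 0.231%.

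The 13326 genes whose mean reached 0.5 FPKM entered the fit on log2(FPKM + 1) with limma 3.58.1 in R 4.3.3, as a 2-sided moderated test with an intensity trend, no covariate, Benjamini-Hochberg adjustment over all 13326 genes and a threshold of 0.05. Fold changes on this scale understate the change of low genes. The deposited FPKM limits precision through the reads behind each gene, 38 to 49812 per library for these 35 genes, and replicate error is given as SD over 3 libraries. The fit was tested on simulated data. The alternatives were 20 other fits, among them voom on the recovered reads, and a threshold of 0.01. Copies were searched with blastn 2.17.0.

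The 35 genes, the lists and the marker genes were chosen with earlier results of these data known. All 35 were accounted for. Of the other lists, the up to 3 called genes with the largest log2 fold change were named, or the one with the smallest unadjusted p where none was called.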

Additional observations from a re-analysis of the deposited data

How the results depend on the processing

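With 3 libraries a group, genes of few reads have wide intervals, and a p that misses the threshold does not show that a level was the same in both groups. Across 21 alternatives the count of these genes called higher was 0 throughout, also without each library (0 to 0). The count called lower, 2 with all libraries, was 1 (Pdk4) with no intensity trend and after GC correction, 6 with library weights (Pdk4, Pdhb, Pdha1, Pgk1, Slc16a1 and Hk2), 0 at a threshold of 0.01, and 0 to 2 without each library. Replicate numbers were shared between the groups, and whether they mark pairs is not given in the sources used here. Same-numbered deviations correlated at -0.0394, -0.0543 and 0.0346, and not every library correlated best with its own number. With 3 libraries a group these values cannot show whether the samples were paired. With the replicate block 0 of the 35 genes were called lower and 0 higher, and with GC correction and the replicate block again 0. Over all tested genes the block left 42 higher and 22 lower, and 1 and 2 with GC correction. Of all tested genes, 672 were called higher and 342 lower, against 327 and 184 with no filter, 1765 and 1378 with library weights, 69 and 26 at a threshold of 0.01, 402 higher after GC correction, 560 lower after quantile normalization and 540 lower with voom. Without each library these counts ran from 45 to 626 and from 26 to 374, with the lowest of both without control 4. Some log2 fold changes near 0 turned sign. With library weights they were -0.046 for Pfkl, -0.070 for Eno2, 0.031 for Mpc2 and -0.16 for Slc16a3. After GC correction, with and without the block, they were -0.058 for Pfkl, -0.028 for Pkm, 0.039 for Mpc1 and 0.063 for Mpc2. Pdk1 was at -0.0018 after quantile normalization. Without each library in turn, the values of the genes that turned ran from -0.0043 to 0.25 for Slc2a3, -0.12 to 0.018 for Hk1, -0.099 to 0.023 for Gpi1, -0.099 to 0.16 for Pfkl, -0.11 to 0.085 for Aldoa, -0.16 to 0.069 for Eno1, -0.035 to 0.30 for Eno2, -0.022 to 0.10 for Pdk1, -0.12 to 0.057 for Mpc1, -0.050 to 0.035 for Mpc2 and -0.29 to 0.37 for Slc16a3. The cause of these moves was not tested. Neither Pdk4 nor Pdhb changed sign under any alternative run. In both genes every control library lay above every cKO library, so leaving out a library or changing the pseudocount, filter or threshold could not turn the sign.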
